A study of Mus musculus with 4 samples.

Results

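The genes of the proteasome and of its interferon-inducible form were compared between 4T1-A and 4T1-S, which both derive from 4T1, a breast cancer cell line of the mouse. Members were the probes, other than controls, whose gene name on the array begins with Psma, Psmb, Psmc, Psmd, Psme, Psmf or Psmg and a digit. The rule found 67 of 41174 probes, under 44 of 27670 gene names. Among these names, Psmc3ip matches by its letters alone, since it encodes a meiotic recombination protein, and it is left out of the counts below. The array carries no probe named Psme2. It carries Psme2b-ps, the name of a copy of Psme2 (now Psme2b in RefSeq), under an accession that the RefSeq table pairs with neither gene. The sequence of this probe was not available, so whether it reads Psme2, Psme2b or both is unknown. It stands here for either transcript.

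The proteasome is the protease that degrades ubiquitin-tagged proteins in the cytosol and nucleus. Its barrel-shaped core holds the catalytic beta subunits, and regulatory particles on its ends unfold substrates and feed them in. Interferons, above all interferon gamma, induce alternative catalytic subunits that replace the constitutive ones in newly built cores, which gives the immunoproteasome, together with an activator cap. This form is known for cutting peptides that fit MHC class I molecules, and it is present without induction in leukocytes.

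Total RNA of each sub-line was hybridised to 2 one-colour Agilent arrays, 4 in all. The labels name no treatment, age or genotype beyond the parental line, and the title of the series calls 4T1-S highly immunogenic. Nothing in the labels tells separate cultures from repeat hybridisations, so the errors below measure the spread between arrays and may be technical. All arrays lay on 1 slide with 4T1-A and 4T1-S at different positions, so position and sub-line cannot be told apart. Between 54.9 and 59.2 percent of 43379 spots per array were well above background. Levels are the processed spot signal divided by the array's 75th percentile, and they were compared within a probe, not between probes. Each difference is the mean log2 level in 4T1-S minus that in 4T1-A, from limma over 16173 genes. In RNA of whole cultures, fewer cells with a transcript and less of it per cell cannot be told apart.

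No proteasome gene differed between the sub-lines past the threshold. Of 43 members, 42 passed the filter on background, and limma called 0 of them at an adjusted p under 0.05, against 6.96 percent of all genes tested (1126 of 16173, with 3.95 percent higher and 3.01 percent lower in 4T1-S). At an unadjusted p under 0.05, 4 members were higher and 1 lower in 4T1-S (11.9 percent, against 28.7 percent of all genes tested). The smallest difference that limma called among all genes was 1.68-fold, and the largest of any member was 1.81-fold (Psma3), so the count of 0 does not show that smaller differences are absent. The median difference of the 42 members was 0.10, against 0.13 for all genes tested, and it was -0.19 against -0.16 with scaling to the median of the array. The 2 arrays of 4T1-S lay above both arrays of 4T1-A for 18 members (42.9 percent, against 40.6 percent of all genes tested) and below both for 7 (16.7 percent, against 18.5 percent). Over both directions the share among all genes tested was 59.1 percent, so the members were near the background in each direction.

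The members' spots were bright. On every array used, 41 of the 42 were above the 75th percentile, and 31 were more than 10 times as bright. Over the whole array the differences were smaller in brighter genes. The share called was 10.3 percent of the other genes with a mean level under 1 and 4.44 percent of those from 1 to 10. Among the 33 members whose mean level was over 10, 97 percent differed by less than 1.5-fold, and so did 93.3 percent of the 2571 other genes of that brightness, of which 1.59 percent were called. The median difference was 0.05 in both sets. For 37 of the 42 members the 95% interval of the difference lay within 2-fold either way. The exceptions were Psmb9 and Psma3, whose intervals reached a 2-fold fall, and Psme1, Psmf1 and Psmd10, whose intervals reached just past a 2-fold rise. These counts hold for scaling to the 75th percentile. With scaling to the median of the array the members' differences were lower (median -0.19 against 0.10), and intervals for it are not given here.

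**Figure D1:**
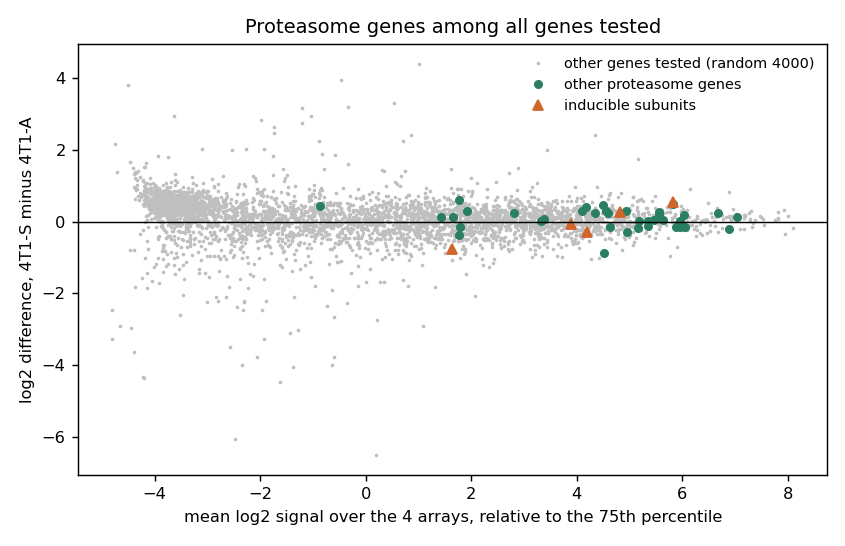
Log2 difference of each gene (4T1-S minus 4T1-A, vertical) against its mean log2 signal over the 4 arrays relative to the 75th percentile (horizontal). Grey points are 4000 genes drawn at random from the other genes tested, green circles are proteasome genes and orange triangles the inducible subunits; the proteasome genes lie in the bright part of the range, between -0.86 and 0.61.

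The inducible catalytic subunits were not higher in 4T1-S. Psmb8, which replaces Psmb5 in the immunoproteasome, had levels of 14.1 and 16.6 in 4T1-A, against 13.3 and 16.0 in 4T1-S. The sub-lines overlapped, and the difference was -0.06 ± 0.20 (SE, n = 2 arrays per sub-line) with a 95% interval of -0.53 to 0.40, so that a rise above 1.32-fold lies outside it. A second probe of Psmb8 gave -0.03. Psmb10, which replaces Psmb7, had levels of 20.6 and 19.8 in 4T1-A, against 21.2 and 13.0 in 4T1-S. The arrays of 4T1-S differed from each other 1.62-fold, more than the sub-lines did (-0.28 ± 0.25, 95% interval -0.87 to 0.31). Without 4T1-S replicate 2 its difference was 0.07.

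Psmb9, which replaces Psmb6, had the lowest difference of the inducible set, which rested on 1 array. Its levels were 2.72 and 5.98 in 4T1-A, against 2.22 and 2.55 in 4T1-S. The second array of 4T1-A was the high one, and the first lay close to both arrays of 4T1-S. The 2.20-fold gap between the 4T1-A arrays exceeded that of 99.0 percent of all genes tested, and it was the widest between replicates among the members. The difference was -0.76 ± 0.35 (95% interval -1.56 to 0.04, limma adjusted p = 0.193). Without 4T1-A replicate 2 it was -0.19 (adjusted p = 0.724). Without 4T1-A replicate 1 it was -1.33 (adjusted p = 0.00132), in a fit where the remaining 4T1-A array is assumed to vary like 4T1-S. The spot carried no outlier flag on any array, and the array holds no second probe of this gene.

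**Figure D2:**
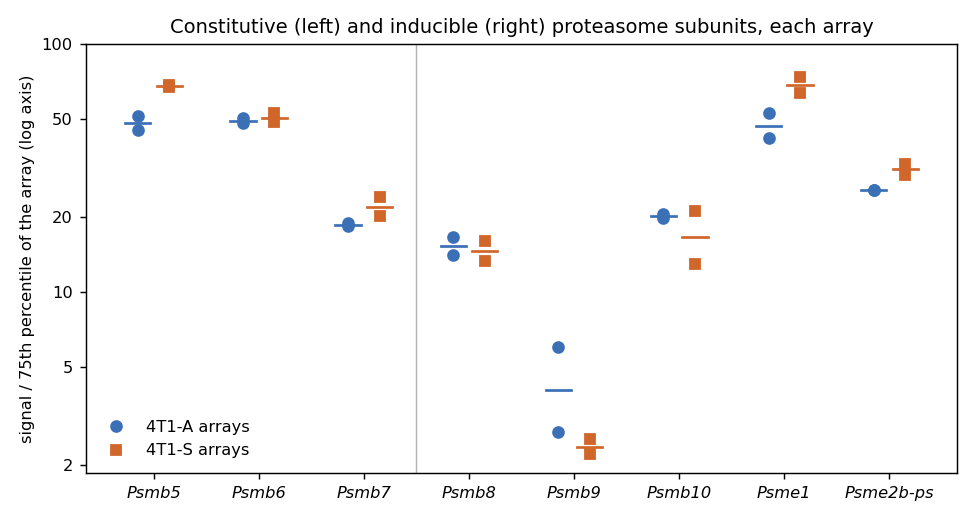
Level of each constitutive catalytic subunit (left of the line) and each inducible subunit (right) on each array, as signal over the array's 75th percentile on a log axis; circles are 4T1-A arrays, squares 4T1-S arrays and bars geometric means of 2 arrays. Psmb8 and Psmb10 overlap between the sub-lines, Psmb9 is set apart by 1 array of 4T1-A at 5.98, and Psmb5 and Psme1 are higher on both arrays of 4T1-S.

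Of the constitutive catalytic subunits, 0 passed the threshold. Their 3 differences were positive, as were 62.9 percent of those of all genes tested. In 2 of them both arrays of 4T1-S were higher, as in 40.6 percent of all genes tested. Psmb5, which carries the chymotrypsin-like activity, had levels of 51.3 and 45.1 in 4T1-A, against 68.2 and 67.1 in 4T1-S. Both arrays of 4T1-S were above both of 4T1-A, at 1.41-fold (0.49 ± 0.19, 95% interval 0.06 to 0.92, limma adjusted p = 0.135). Psmb7, with trypsin-like activity, had levels of 18.4 and 18.9 in 4T1-A, against 24.1 and 20.3 in 4T1-S, which also did not overlap (0.25 ± 0.19, adjusted p = 0.426). Psmb6, with caspase-like activity, had levels of 50.3 and 47.8 in 4T1-A, against 52.5 and 48.4 in 4T1-S. These overlapped, at a difference of 0.04 ± 0.18. The median of the 3 subunits was 0.25, and it turned to -0.04 with scaling to the median, where Psmb5 alone kept a positive difference (0.20).

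Setting each inducible subunit against its constitutive counterpart within an array removes the scaling of the array. The log2 difference of Psmb8 from Psmb5, relative to its mean in 4T1-A, was -0.21 and 0.21 in 4T1-A, against -0.70 and -0.41 in 4T1-S, a change of -0.56 (-0.34 without 4T1-A replicate 2). For Psmb9 against Psmb6 the values were -0.60 and 0.60 in 4T1-A, against -0.96 and -0.64 in 4T1-S, a change of -0.80 that fell to -0.20 without 4T1-A replicate 2. For Psmb10 against Psmb7 they were 0.05 and -0.05 in 4T1-A, against -0.30 and -0.76 in 4T1-S, a change of -0.53 (-0.30 without 4T1-S replicate 2). In each of the 3 pairs the arrays of 4T1-S lay below those of 4T1-A, by 1.47-fold, 1.74-fold and 1.45-fold. For Psmb9 against Psmb6 the gap was narrow (-0.64 against -0.60). The pairs were read on the same 4 arrays, and the share for other pairs of genes was not computed. Among single genes, 59.1 percent of those tested did not overlap in either direction. An exact permutation test, 2-sided, gave p = 0.333 for each pair, which is the smallest value that 2 arrays against 2 allow, so no change could have passed at 0.05. The values describe unequal change of 2 probes and do not say which of them moved.

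**Figure D3:**
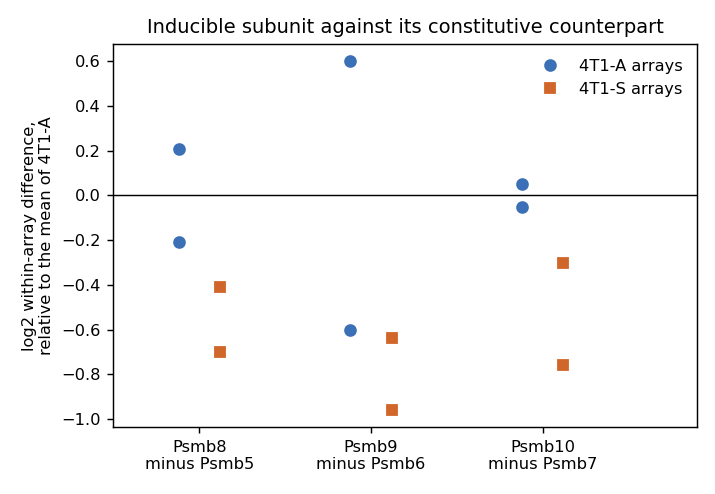
Within-array log2 difference between each inducible catalytic subunit and the constitutive subunit it replaces, relative to the mean of the 4T1-A arrays (vertical), for the 3 pairs (horizontal); circles are 4T1-A arrays and squares 4T1-S arrays. The 4T1-S arrays lie between -0.96 and -0.30 and below the 4T1-A arrays of the same pair, narrowly so for Psmb9 against Psmb6.

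The probes for the interferon-inducible activator cap did not pass the threshold of the test. They were higher on both arrays of 4T1-S, as were 40.6 percent of all genes tested. Psme1, the alpha subunit of this cap, had levels of 41.7 and 52.5 in 4T1-A, against 63.5 and 73.4 in 4T1-S. The groups did not overlap and differed 1.46-fold (0.54 ± 0.21, 95% interval 0.07 to 1.02, limma adjusted p = 0.134), or by 0.25 with scaling to the median. The probe named Psme2b-ps had levels of 25.7 and 25.7 in 4T1-A, against 29.6 and 32.9 in 4T1-S. It differed by 0.28 ± 0.18 (adjusted p = 0.352), its second probe by 0.20, and its difference was -0.01 with scaling to the median. Of the 5 inducible members, 0 passed, 1 was higher at an unadjusted p under 0.05 (28.7 percent of all genes tested were under it in either direction), and the median was -0.06.

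The reference sequences of the start regions are shown for 5 stretches because they place the genes above beside motifs of known interferon and stress pathways. They are from RefSeq, build GRCm38.p6, whose table held 36 of the 43 members. Capitals mark matches, on either strand, to the interferon-stimulated response element (GAAA, any 2 bases, then GAAA again), the gamma-activated site TTCNNNGAA or the antioxidant response element core TGACNNNGC. The last is bound by factors that raise proteasome genes under stress. Psmb9 and Tap1, which encodes a subunit of the peptide transporter of class I loading, lie head to head with 225 bases between their start sites, and Psmb8 is the next protein-coding gene after Tap1. The stretches are chr17:34187331-34187555 on the minus strand, chr17:34198075-34198194 on the plus strand, chr14:55578414-55578513 on the plus strand, chr14:54617996-54618095 on the minus strand and chr11:70525257-70525356 on the plus strand, in the order printed. All end at the base before the start site, except that of Psme1, whose last 20 bases follow it.
between Psmb9 and Tap1: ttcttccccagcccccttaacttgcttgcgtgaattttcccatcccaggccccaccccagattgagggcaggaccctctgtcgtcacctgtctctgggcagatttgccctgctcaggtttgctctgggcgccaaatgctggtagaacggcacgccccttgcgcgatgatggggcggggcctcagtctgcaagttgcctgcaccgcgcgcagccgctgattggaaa
Psmb8: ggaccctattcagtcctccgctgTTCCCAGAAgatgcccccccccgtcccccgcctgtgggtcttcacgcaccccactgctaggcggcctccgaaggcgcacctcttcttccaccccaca
Psme1: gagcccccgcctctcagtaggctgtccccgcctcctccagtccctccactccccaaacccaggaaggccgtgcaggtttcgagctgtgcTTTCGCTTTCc
Psmb5: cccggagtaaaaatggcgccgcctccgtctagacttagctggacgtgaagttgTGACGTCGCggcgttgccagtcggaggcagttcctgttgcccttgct
Psmb6: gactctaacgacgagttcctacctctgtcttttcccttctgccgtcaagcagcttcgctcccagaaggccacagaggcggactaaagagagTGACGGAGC

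Psme1 held the interferon-stimulated response element, as did the windows of Psmb3, Psmd4 and Psmd9, so 4 of the 38 windows of members carried it, against 3.44 percent of all 32851 windows of this length (250 bases before to 50 after a start). The gamma-activated site stood in the windows of Psmb8 and Psmd2, against 8.3 percent of all windows. Psmb5 and Psmb6 held the antioxidant response element core, as did Psmc6, Psmd12, Psmd9 and Psme4, 6 windows in all against 12.4 percent. A match is a stretch of letters, and no match in the stretch between Psmb9 and Tap1 says only that these letters are not there. The genes of the 4 windows with the interferon-stimulated response element had differences of 0.54 (Psme1), 0.14 (Psmb3), -0.18 (Psmd4) and 0.13 (Psmd9).

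The remaining beta subunits, which build the core without cutting, stayed within 1.13-fold. Psmb1 had levels of 44.5 and 44.3 in 4T1-A, against 48.7 and 51.9 in 4T1-S (0.18 ± 0.18), with both arrays of 4T1-S on top. Psmb2 was the lowest of the 4, at -0.16 ± 0.23, with levels of 4.30 and 3.09 against 3.56 and 2.99 that overlapped. Psmb3 and Psmb4 differed by 0.14 and -0.12.

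The alpha subunits form the outer rings through which substrates enter the core. Of the 7 tested, 0 passed, and their median was -0.14. Psma6 was the highest, with levels of 16.0 and 14.8 in 4T1-A, against 19.6 and 18.5 in 4T1-S (0.31 ± 0.18). Psma4 had the lowest difference among those measured on all arrays (-0.30 ± 0.21), with levels of 39.8 and 30.0 against 27 and 29. The lowest difference of any member was that of Psma3, chosen for mention after its values were seen. Its levels were 29.7 and 26.1 in 4T1-A and 15.4 in 4T1-S replicate 2, where it was lowest. The spot of 4T1-S replicate 1 carried a flag for uneven pixels and was left out of the fit, which gave -0.86 ± 0.24 (limma adjusted p = 0.0828) on 3 arrays. That spot read 27, within the range of 4T1-A, and with it the difference was -0.45 (adjusted p = 0.326). Psma3 was called with an intensity trend and robust fitting (adjusted p = 0.05, just under the threshold). Leaving out either array of 4T1-A left 1 array against 1, with no test.

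**Figure D4:**
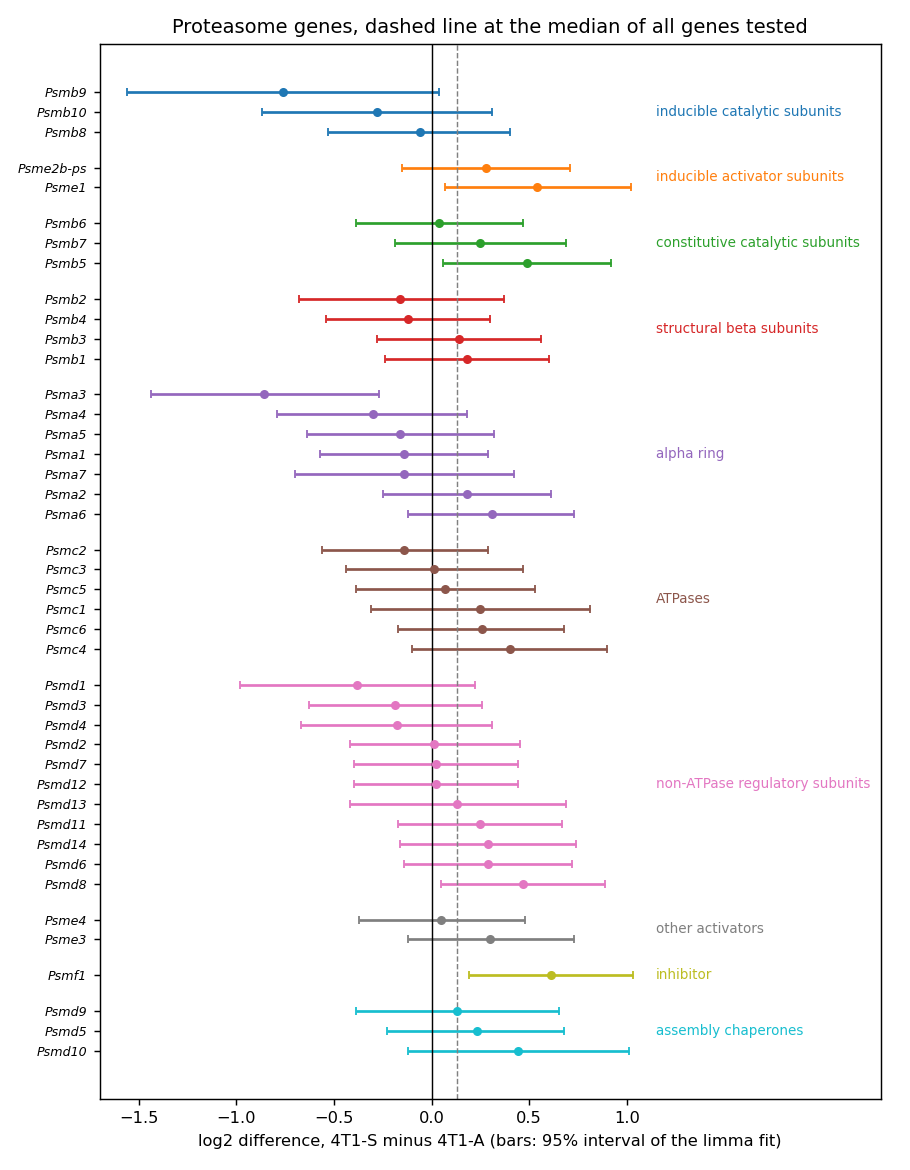
Log2 difference (4T1-S minus 4T1-A, horizontal) of the 42 proteasome genes tested, grouped by role, with the 95% interval of the limma fit as bars; the solid line is 0 and the dashed line 0.13, the median of all genes tested. Most intervals hold both lines; Psma3 (on 3 arrays) and Psmb9 lie farthest to the left, and Psmf1, Psme1, Psmb5 and Psmd8 farthest to the right.

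The ATPases of the regulatory particle, which unfold substrates, ranged from -0.14 to 0.40, and 0 of 6 passed. Psmc4 was the highest, with levels of 18.1 and 13.5 in 4T1-A, against 19.2 and 22.1 in 4T1-S (0.40 ± 0.22), and its second probe gave 0.35. Psmc2 was the lowest, with levels of 71.2 and 68.3 against 65.5 and 61.5 (-0.14 ± 0.18). Its second probe, above background on 3 arrays at levels of at most 0.153, gave -1.62, and the mean of its probes differed by -0.88 (adjusted p = 0.198 by limma). Psmc3, Psmc5, Psmc1 and Psmc6 differed by 0.01, 0.07, 0.25 and 0.26.

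Of the 11 non-ATPase subunits of this particle, which include a ubiquitin receptor and a deubiquitinase, 0 passed, and their median was 0.02. Psmd8, a lid subunit, was the highest, with levels of 19.3 and 19.2 in 4T1-A, against 27.5 and 26.0 in 4T1-S. The replicates lay close together and the sub-lines apart, at 1.39-fold (0.47 ± 0.18, 95% interval 0.05 to 0.89, limma adjusted p = 0.138). With scaling to the median its difference was 0.18. Psmd14, the deubiquitinase of the lid, was higher on both arrays of 4T1-S by both of its probes (0.29 and 0.45). Psmd1, a scaffold of the base, was the lowest, with overlapping levels of 4.56 and 3.29 against 3.62 and 2.44 (-0.38 ± 0.26). The ubiquitin receptor Psmd4 differed by -0.18 and the scaffold Psmd2 by 0.01. Together the 17 genes of the regulatory particle stayed within 1.39-fold.

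Psmf1, which encodes a protein that inhibits the core in vitro, had the highest difference and the lowest adjusted p of the members. Its levels were 2.78 and 2.72 in 4T1-A, against 4.32 and 4.09 in 4T1-S, a gap between tight replicates (0.61 ± 0.18, 1.53-fold, limma adjusted p = 0.0815). With scaling to the median the difference was 0.32. The other probes of Psmf1 did not share the gap. They gave 0.05 and -0.41 at levels under 1, and the mean of the 3 probes differed by 0.08. The brightest probe is listed under an accession that the RefSeq table does not pair with Psmf1, and it was assigned by the symbol in the file.

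Among the activators outside the immunoproteasome, Psme3, which caps nuclear proteasomes, had levels of 3.29 and 3.56 in 4T1-A, against 4.06 and 4.40 in 4T1-S (0.30 ± 0.18, adjusted p = 0.315 by limma). Psme4, a large single-chain activator, had overlapping levels of 45.1 and 41.8 against 43.4 and 46.9 (0.05 ± 0.18). Its probes disagreed, with 0.59 and -0.02 from the 2 that carry its RefSeq accession. The chaperones that assemble the regulatory particle differed by 0.44 ± 0.24 (Psmd10), 0.23 ± 0.20 (Psmd5) and 0.13 ± 0.22 (Psmd9). Psmd10, known as gankyrin, had levels of 0.505 and 0.440 in 4T1-A, against 0.795 and 0.517 in 4T1-S, where 1 array made most of the difference. Psma8, the alpha subunit of testis, was on none of the arrays well above background, at levels between 0.0133 and 0.0163.

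Where a gene had several probes above background on all arrays, they mostly gave like values. Of 16 such genes, Psmc3ip included, 13 had probes within 0.25 of each other, and only Psmf1 and Psme4 spread over 0.5 or more. In 7 of the 16 the probes straddled 0. The members, most of them bright, also varied less between replicates than the array as a whole, in a comparison not matched for brightness. For the members the log2 gap between the arrays of a sub-line had an SD of 0.29 (4T1-A) and 0.25 (4T1-S), against 0.38 and 0.37 for all genes tested.

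Genes that work with the proteasome were read from a fixed list. Of 22 tested partners, 0 rose, 1 fell and 21 did not pass, with a median of -0.08. Among all genes tested, 3.95 percent were called higher and 3.01 percent lower in 4T1-S, so 1 fall among 22 was near that share. The fall was that of Ubqln2, which carries ubiquitinated proteins to the proteasome. Its levels were 0.670 and 0.699 in 4T1-A, against 0.169 and 0.136 in 4T1-S, a 4.52-fold gap far wider than either replicate pair (-2.18 ± 0.20, limma adjusted p = 0.000683). The call held under each alternative tried, with a smaller difference of -1.32 after normexp background correction. The shuttle genes Ubqln1 and Ubqln4 differed by 0.11 and 0.20. Pomp, the chaperone that completes the core and that interferon also induces, had overlapping levels of 79.8 and 56.6 against 70.2 and 53.4 (-0.13 ± 0.24). Nfe2l1, the transcription factor that raises proteasome genes when the proteasome is inhibited, differed by -0.04 ± 0.25. The core assembly chaperones Psmg1, Psmg2 and Psmg3, which the array lists under older names, differed by -0.37, -0.12 and 0.07.

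Of 9 tested class I genes and regulators that interferon induces along with the immunoproteasome, 0 passed, and the median was 0.18. Tap1 had levels of 0.522 and 0.556 in 4T1-A, against 0.760 and 0.840 in 4T1-S. It differed by 0.57 ± 0.19 (1.48-fold, adjusted p = 0.0991 by limma), or by 0.28 with scaling to the median. Its head-to-head neighbour Psmb9 thus had a difference of the opposite sign. The 4T1-A arrays that were 2.20-fold apart for Psmb9 lay close together for Tap1. Irf1, the factor known to drive the immunoproteasome genes, had overlapping levels of 23.1 and 17.5 against 22.7 and 21.2 (0.12 ± 0.21). The next 2 interferon-stimulated genes were chosen after their values were seen, so they do not stand for such genes as a set. Both were called higher in 4T1-S, as were 3.95 percent of all genes tested. Isg15, a ubiquitin-like modifier, had levels of 3.61 and 5.15 in 4T1-A, against 10.4 and 9.57 in 4T1-S (1.21 ± 0.22, adjusted p = 0.0222, but 0.0618 with scaling to the median and 0.101 when dim probes were kept, and lost without 4T1-A replicate 1 at 0.0512, 4T1-S replicate 1 at 0.132 or 4T1-S replicate 2 at 0.121). Irf7, an interferon-induced transcription factor, had levels of 0.114 and 0.15 in 4T1-A, against 0.627 and 0.447 in 4T1-S (2.02 ± 0.24, adjusted p = 0.00285, but 0.0562 when dim probes were kept, and a difference of 1.38 with normexp).

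Markers of other cells were read because leukocytes hold the immunoproteasome without induction. All 7 markers of mammary carcinoma cells were above background on every array. Of these, 4 were called lower in 4T1-S, against 3.01 percent of all genes tested. They were Epcam (13.8-fold), Krt19 (6.12-fold), Krt14 (4.17-fold) and Cdh1 (2.15-fold). The other 3, Krt8, Krt18 and Krt5, did not pass (differences of -0.19, -0.14 and 0.52). Of 10 leukocyte markers, 4 were above background on all arrays and 4 on none, among them Itgam and Adgre1, and Ptprc was so on 1 array. Their summed level was 1.04 and 1.12 in 4T1-A, against 0.982 and 1.03 in 4T1-S (Cd68, the brightest, differed by -0.70 with an adjusted p of 0.0742 by limma). The 5 fibroblast markers summed to 0.505 and 0.75 in 4T1-A, against 1.03 and 1.01 in 4T1-S. Most of this came from Pdgfra, and 1 of the 5 was above background on all arrays and 1 on none. The part of either list in the differences above was not tested. Of the 3 endothelial markers, 0 were well above background on an array.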

How the data were processed

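Total RNA of 4T1-A and 4T1-S (2 arrays each, groups from the sample titles) was measured in 1 colour. Per the submitters' processing notes and the file headers, the authors extracted spot intensity values with Agilent Feature Extraction 9.1, with background subtraction, spatial detrending and surrogates for low signals, and without scaling between arrays. Flag columns deposited beside them (other values of 0 or 1) mark outliers and spots well above background. The deposited series table holds a ratio, the processed intensity over the array's 75th percentile. Its scale was found from the values, and its column medians were 0.078, 0.076, 0.098 and 0.091. Its rows were matched by feature number.

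From these, log2 of the processed intensity minus log2 of the array's 75th percentile was computed. Spots with an outlier flag (5 to 9 per array) were left out and spots of a probe averaged. Gene names came from the file of 4T1-S replicate 2, since 47 names in the file of 4T1-A replicate 1 differ. Of 41174 probes, 22951 were named by RefSeq accession and 9768 by symbol (GRCm38.p6), and 8455 kept the file's name. Members keep the file's name. Each gene was represented by its brightest probe, and tested if every array of 4T1-A, or every array of 4T1-S, had it well above background. The precision is limited by the number of arrays. Limma 3.58.1 (lmFit and eBayes, R 4.3.3, with the data.table package, version 1.17.8, 2 residual and 5.71 prior degrees of freedom) was fitted over all genes, with Benjamini-Hochberg adjustment. Intervals of single genes are not adjusted. The procedure was tested on simulated data. The members, lists and named genes (the inducible and constitutive catalytic subunits, any member called, and the highest and lowest difference of each role) were chosen with earlier results of these data known, and the split by brightness after the values were seen. The fixed lists also name Psmg4, Paaf1 and Nlrc5, for which no probe was matched here, and Psmb11, the thymus beta subunit, whose probes were not well above background on any array. The values of 1 listed gene are not reported here. A total of 15 alternatives were run.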

Additional observations from a re-analysis of the deposited data

How the results depend on the processing

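The count of proteasome genes called was 0 and changed in few settings. It was 1 with an intensity trend and robust fitting (Psma3), and between 0 and 1 when single arrays were left out (Psmb9 without 4T1-A replicate 1). Psma3 could not be tested without either array of 4T1-A, and could not be fitted without 4T1-S replicate 2. It was also not tested with the filter on all 4 arrays or with a block for the replicate number, so the counts of those settings leave it out. The count over all genes, 1126, was 508 with normexp, 730 with quantile normalization, 271 with no filter on background and 617 with the filter on all 4 arrays, and it ranged from 306 without 4T1-S replicate 2 to 2391 without 4T1-A replicate 2 (388 without 4T1-S replicate 1). With scaling to the median the called genes split into 189 higher and 887 lower, against 639 and 487, with quantile normalization into 266 and 464 and with cyclic loess into 250 and 534. The titles number the arrays of both sub-lines, and same-numbered arrays deviated together (correlation across genes 0.42), but nothing in the labels says what the numbers share. With the replicate block the counts were 3689 over all genes and 2 members, Psme1 (adjusted p = 0.0436) and Psmf1 (0.0308), and Tap1 also passed (0.0376).

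Small differences changed sign with the scaling. Psmb6 was -0.01 with normexp and with cyclic loess, -0.03 with quantile normalization and -0.25 with scaling to the median. With scaling to the median Psme2b-ps was -0.01, Psmb7 -0.04, Psmb1 -0.11, Psme4 -0.24, Psmd9 -0.16 and Irf1 -0.17, and with quantile normalization Psme4 was -0.03. Over the fits without single arrays, Psmb2 ranged from -0.40 to 0.08, Pomp from -0.38 to 0.11, Nfe2l1 from -0.32 to 0.23, Psmb8 from -0.20 to 0.07, Psmb10 from -0.63 to 0.07, Psmd9 from -0.09 to 0.36, Psme4 from 0.00 to 0.11, Psmb6 from -0.02 to 0.10 and Irf1 from -0.08 to 0.32. None of these passed the test in any setting that turned them. Precision is limited by 2 arrays per sub-line, and Psma8 by its signal near background.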
